A study of Mus musculus with 23 samples.

Results

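The 10 genes described here, Cd79b, Npl, Idh2, Khdrbs3, Rab34, Prune2, Scimp, Chst1, Hcar2 and Htra3, were picked from the 33280 genes of the count table for a measured change between microglia (MG) of mice treated with BLZ945 and of vehicle-treated mice, so that change is given as a description and without a test. The question put to the data was whether macrophages of the brain's subdural border, the sdCAMs of the leptomeninges and vessel walls, differed in the same genes. Of the 23 libraries, 5 held MG of vehicle-treated mice (MG CTL), 5 MG of BLZ945-treated mice (MG BLZ945), 5 tdT- sdCAMs of vehicle-treated mice (tdT- CTL), 5 tdT- sdCAMs of BLZ945-treated mice (tdT- BLZ945) and 3 tdT+ sdCAMs of BLZ945-treated mice (tdT+ BLZ945). All mice were Ccr2creERT2/+ R26tdT/tdT, in which tamoxifen turns on the tdTomato reporter in cells that express Ccr2 at that time, a gene of circulating monocytes. They received BLZ945 at 200 mg/kg or vehicle by gavage on 7 days and tamoxifen at 2 mg on the last of these days and again 2 and 4 days after it, and 8 weeks later all of them, the vehicle-treated included, had a stroke induced by thrombin in the middle cerebral artery, 1 day before the cells were sorted.

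BLZ945 blocks the kinase of the Csf1 receptor, on which microglia and many border macrophages depend for survival. Microglia disappear under such a drug and the brain is refilled when it is withdrawn, so MG BLZ945 libraries hold cells that have repopulated the parenchyma. A border macrophage can be refilled from surviving neighbours or from blood monocytes. A tdT+ sdCAM is therefore a cell whose Ccr2-expressing ancestor was labelled at the end of the treatment, whereas a tdT- sdCAM carries no such label.

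MG had been sorted as CD45int CD11b+ CD206- cells and sdCAMs as cells with intermediate to high CD206, and the methods of the study also name a gate on Ly6C-, Ly6G- and CD11c- cells, which would remove Ly6C-high monocytes. The summed level of the 9 sdCAM markers (Mrc1, Lyve1, Cd163 and others) was 16134 to 19485 CPM (counts scaled to a fixed library size) in tdT- sdCAM libraries, 13360 to 15974 CPM in tdT+ sdCAM libraries, all below the lowest tdT- library, and 14.4 to 53.2 CPM in MG libraries. The 10 microglia markers in the table (P2ry12 and Tmem119 among them) summed to 22318 to 34535 CPM in MG libraries and to 1785 to 3212 CPM in sdCAM libraries, where their median was 7.91% of the MG level in the CTL groups. Library totals were 9433960 to 13276081 counts, so 3 counts equal at most 0.331 CPM. Every CTL library came from 1 animal and every BLZ945 library except those named F2 from a pool of 2, so treatment and pooling cannot be told apart. The same mouse number stands in the names of the BLZ945 libraries F2 and M1. In such bulk libraries, fewer cells that express a gene and less of its RNA per cell cannot be told apart.

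Promoter windows of RefSeq (GRCm38.p6) were found for 6 of the 10 genes, Npl, Chst1, Htra3, Idh2, Rab34 and Prune2, and not for Cd79b, Khdrbs3, Scimp and Hcar2. In the 250 bases before each start, 3 short motifs were searched on both strands: CACGTG (E-box), TGANTCA (AP-1) and GGAAGT (PU.1), and no match overlapped another. Of the 32851 windows in the table, 6.02% held CACGTG, 6.75% held TGANTCA and 19.7% GGAAGT. The windows of Npl, Chst1 and the first start of Rab34 each held 1 match, and those of Idh2, Prune2, Htra3 and the second start of Rab34 held none. The windows with a match are shown 5′ to 3′ on the gene's strand, with the match in capitals, together with that of Idh2, the gene whose level followed Npl most closely over the libraries.
Npl (chr1:153549715-153549964, minus strand): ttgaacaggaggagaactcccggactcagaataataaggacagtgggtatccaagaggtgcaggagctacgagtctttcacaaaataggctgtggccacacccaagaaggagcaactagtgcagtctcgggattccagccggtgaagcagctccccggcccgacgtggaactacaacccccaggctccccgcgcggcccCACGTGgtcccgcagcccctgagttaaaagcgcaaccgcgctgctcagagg
Chst1 (chr2:92600867-92601116, plus strand): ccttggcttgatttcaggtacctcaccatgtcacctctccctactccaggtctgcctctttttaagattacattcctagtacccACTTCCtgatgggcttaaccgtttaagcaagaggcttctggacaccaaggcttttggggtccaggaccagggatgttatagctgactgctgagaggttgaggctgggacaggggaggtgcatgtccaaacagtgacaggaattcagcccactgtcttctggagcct
Rab34 (chr11:78188177-78188426, plus strand): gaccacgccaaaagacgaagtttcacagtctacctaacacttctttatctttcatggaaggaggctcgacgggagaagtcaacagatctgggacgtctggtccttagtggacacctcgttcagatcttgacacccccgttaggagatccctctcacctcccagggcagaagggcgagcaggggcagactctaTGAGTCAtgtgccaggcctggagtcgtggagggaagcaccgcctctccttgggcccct
Idh2 (chr7:80115351-80115600, minus strand): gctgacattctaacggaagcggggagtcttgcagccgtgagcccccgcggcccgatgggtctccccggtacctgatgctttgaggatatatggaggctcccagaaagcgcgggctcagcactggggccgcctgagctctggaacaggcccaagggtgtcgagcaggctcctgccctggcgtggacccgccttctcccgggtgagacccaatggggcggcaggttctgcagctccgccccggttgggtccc
The match in Npl begins 51 bases before the start, that in Rab34 58 bases before it, and that in Chst1, on the opposite strand, 166 bases before it. Npl and Rab34 were lower in MG BLZ945 and Chst1 was higher. A match describes the letters of a window and says nothing of whether a factor binds there.

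**Figure D1:**
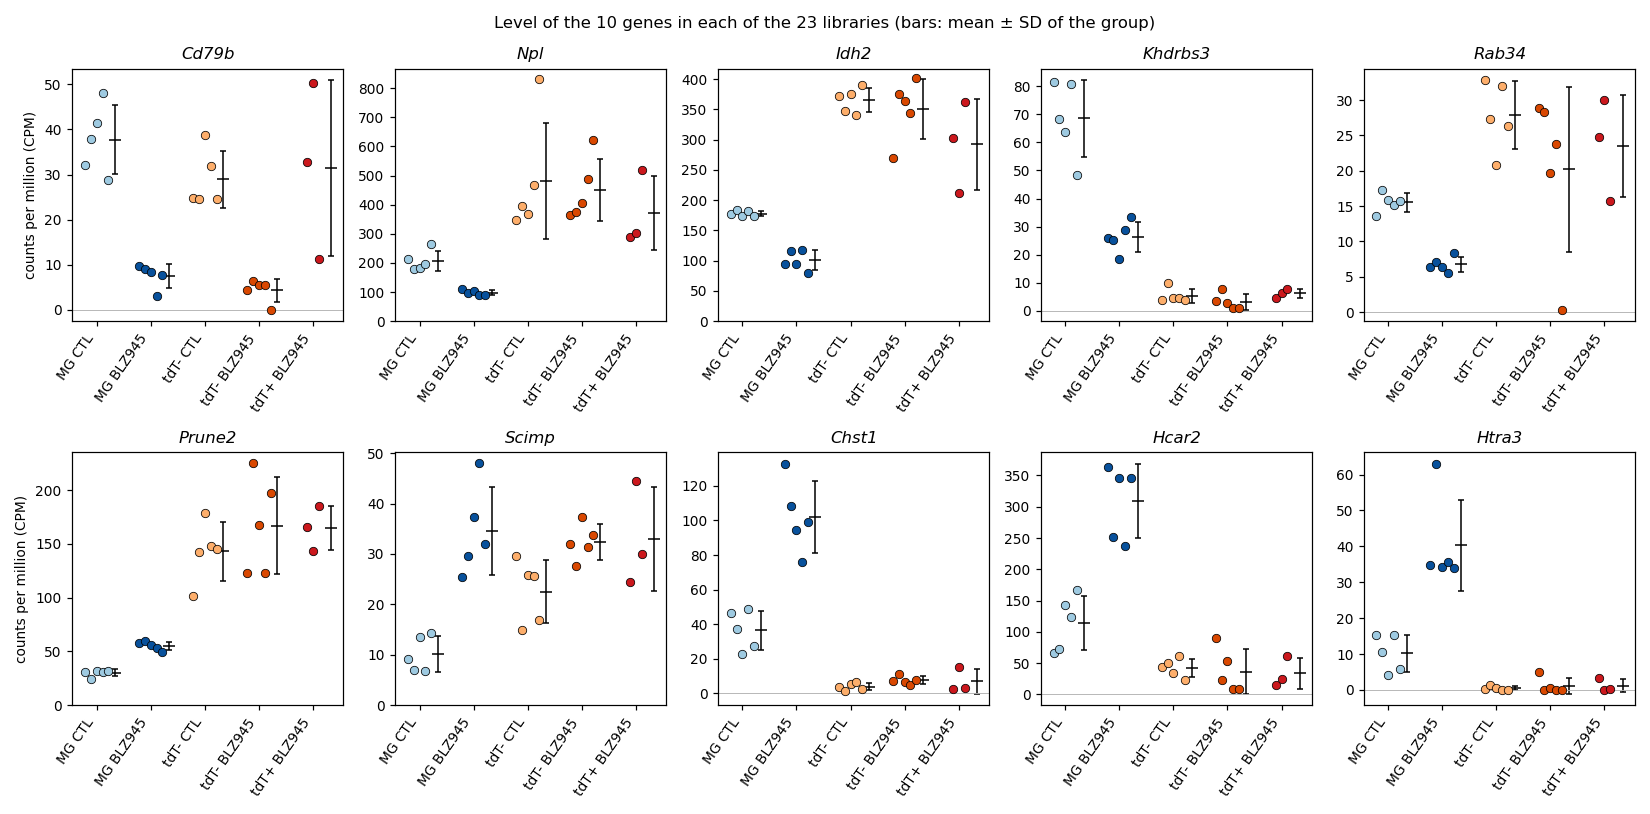
Level of each of the 10 genes in CPM (vertical axis, a linear scale of its own for each gene) in the 5 groups (horizontal axis). Each point is 1 library and the bar beside the points is the mean ± SD of the group. The MG CTL and MG BLZ945 points of every gene lie apart, as the choice of the genes fixes, whereas among tdT- sdCAMs only the points of Cd79b lie apart.

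In MG, 5 of the genes were lower after BLZ945 (Cd79b, Npl, Idh2, Khdrbs3, Rab34) and 5 were higher (Prune2, Scimp, Chst1, Hcar2, Htra3). The whole comparison called 46 of 11264 genes at an edgeR adjusted p under 0.05, which is 0.408%, and all 10 were among these. Their libraries did not overlap between MG CTL and MG BLZ945 for any of the 10, against 3.09% of all genes tested. Both shares follow from the choice and nothing is read from them. Markers of other cell types in MG are given beside this, none of which passed the edgeR test. The endothelial Pecam1 was at 11.5 to 17.8 CPM in CTL and 1.27 to 9.19 CPM in BLZ945 libraries (−1.62, SE 0.35, adjusted p = 0.0593), the other 4 endothelial markers tested ran from −1.20 (Cldn5) to 0.21 (Flt1), and all 6 summed to 19.3 to 28.5 and 5.43 to 21.9 CPM. The sdCAM markers summed to 27.1 to 53.2 and 14.4 to 36.5 CPM, and the 6 tested were Cbr2 (−2.04), Mrc1 (−1.43), F13a1 (−0.77), Clec12a (−0.04), Pf4 (0.02) and Ms4a7 (0.67). The monocyte markers summed to 7.50 to 17.5 and 4.32 to 14.7 CPM, and the 2 tested were Plac8 (−2.08) and Ccr2 (−0.58). Their part in the MG values of the 10 genes was not tested.

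Among tdT- sdCAMs, none of the 10 genes passed the edgeR test for BLZ945 against CTL. It called 0 of 13076 genes, or 0%, so the comparison as a whole gave no call. At an unadjusted p under 0.05 there was 1 member, Cd79b, against 5.33% of all genes. Groups without overlap were seen for 1 member, again Cd79b, against 1.84% of all genes. DESeq2 called 1 of the 10, Cd79b, and 0.431% of all genes with an adjusted p.

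The estimate had the same sign in tdT- sdCAMs as in MG for 9 of the 10 genes, all but Hcar2. Over the 10997 genes tested in both comparisons, 47.8% had the same sign, and of the other 31 genes called in MG that were tested in both, 17 had it. For 9 of the 10 genes the 95% interval of the change in tdT- sdCAMs covered 0, so the sign of a single gene is not settled by these libraries. The signs of Npl and Idh2 turned when 1 library was left out. That of Htra3 turned with the replicate block (−0.28), and without the tdT- BLZ945 library F1 Htra3 was not tested. MG and tdT- libraries were sorted from the same animals, so the comparisons do not rest on separate mice.

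**Figure D2:**
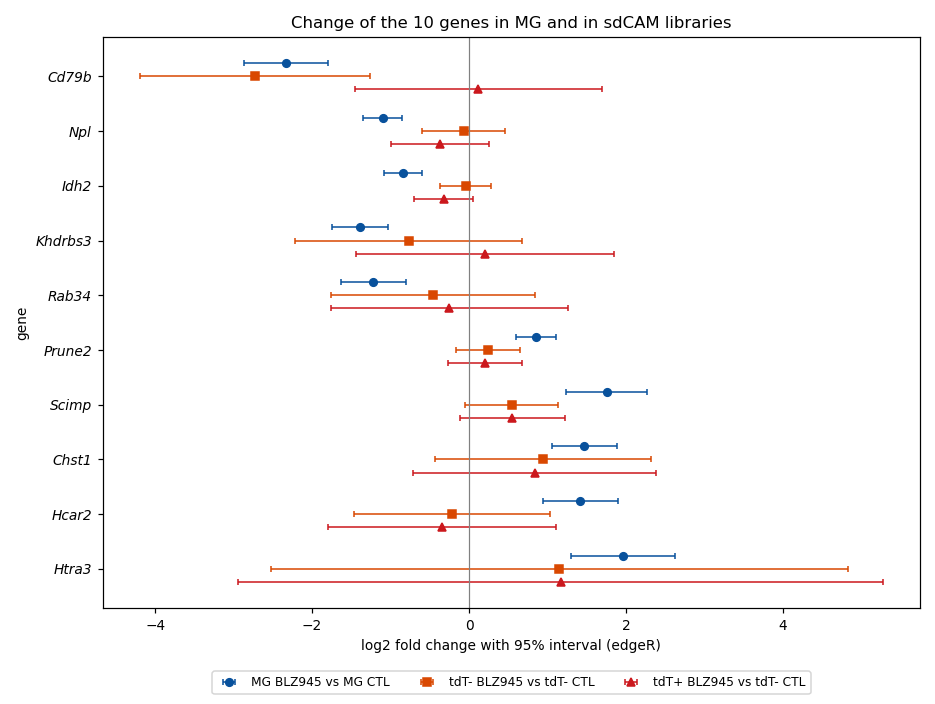
Log2 fold change of each gene (horizontal axis, edgeR, with its 95% interval) for MG BLZ945 against MG CTL (circles), tdT- BLZ945 against tdT- CTL (squares) and tdT+ BLZ945 against tdT- CTL (triangles), the last 2 sharing the tdT- CTL libraries. The square of Cd79b, at −2.73, lies beside the circle, at −2.33, while its triangle lies at 0.12. The circles chose the genes and are no test.

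Cd79b encodes Igβ, which pairs with the product of Cd79a to form the signalling part of the B cell receptor. In MG CTL its levels were 32.2, 38.0, 41.5, 48.1 and 28.8 CPM (F1, F2, F3, M1, M2, the order kept for all groups of 5). MG BLZ945 libraries held 9.69, 9.10, 8.40, 3.0 and 7.63 CPM. All of these lie below the lowest CTL library, and the difference was −2.33 on the log2 scale (SE 0.25).

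In tdT- CTL sdCAMs Cd79b stood at 24.8, 24.6, 38.7, 31.9 and 24.7 CPM. The tdT- BLZ945 libraries had 4.39, 6.27, 5.51, 5.47 and 0 CPM, all below the lowest CTL library. The value of 0 belongs to M2, where 3 counts would have been 0.331 CPM. The means were 28.9 ± 6.28 and 4.33 ± 2.51 CPM (SD, n = 5 each) and the change was −2.73 (SE 0.69, 95% interval −4.20 to −1.26). With edgeR over all genes this gave an unadjusted p of 0.00121 and an adjusted p of 0.436, which does not pass. DESeq2 gave an adjusted p of 0.00805 and edgeR on all 23 libraries 0.0353, both under 0.05. The model of all 23 libraries takes its spread partly from the MG libraries that chose the genes. Its p is not independent of that choice. Without M2 the change was −2.41 with an edgeR adjusted p of 0.147, and over its other edgeR alternatives on sdCAM libraries the adjusted p was at most 0.898. The number of genes with a count also differed between these groups, at 12733 to 14460 in tdT- BLZ945 and 14633 to 15590 in tdT- CTL libraries, and its part in the Cd79b difference was not tested. The 6 fibroblast markers summed to 15.5 to 62.8 CPM in tdT- BLZ945 and 25.3 to 32.9 CPM in tdT- CTL libraries. None of them passed the edgeR test, and their part in the Cd79b difference was not tested.

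The 3 tdT+ BLZ945 libraries of Cd79b had 32.8, 50.3 and 11.3 CPM (F2, F3, M2), all above the 5 tdT- BLZ945 libraries. Against tdT- BLZ945 the difference was 2.84 (SE 0.75, 95% interval 1.26 to 4.43), with an edgeR unadjusted p of 0.00158 and adjusted p of 0.313. Within the samples sorted for both, tdT+ was above tdT- by 2.22 (F2), 2.98 (F3) and 3.62 (M2) on the log2(CPM + 1) scale, in 3 of 3 pairs. DESeq2 (adjusted p = 0.00937), edgeR on all 23 libraries (0.0188) and edgeR without the tdT- library M2 (0.0261) passed the threshold. Of these, the model of all 23 libraries again draws on the MG libraries that chose the genes. The fit with the sample as a replicate block gave 3.76 with an adjusted p of 1.00. Against tdT- CTL, the tdT+ libraries differed by 0.12 (SE 0.74, 95% interval −1.45 to 1.69, edgeR adjusted p = 0.997), an interval that still allows a change in either direction. All 3 comparisons share libraries with each other.

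Markers of the cell types were read in tdT+ and tdT- BLZ945 libraries as well. Of the 9 sdCAM markers edgeR called 1, Cd163, a scavenger receptor of border macrophages, which was at 324 to 373 CPM in tdT+ BLZ945, 814 to 2020 CPM in tdT- BLZ945 and 1345 to 2229 CPM in tdT- CTL. It was lower in tdT+ by −2.07 (SE 0.26, edgeR adjusted p = 0.00117) against tdT- BLZ945 and by −2.27 (SE 0.26, adjusted p = 0.000532) against tdT- CTL. The other 8 ran from −0.86 (Lyve1, SE 0.20, edgeR adjusted p = 0.150) to 0.10 (Clec12a) against tdT- BLZ945. No marker of the other cell types passed the test in that comparison. Aqp4, a water channel of astrocytes, was at 4.34 to 8.51 CPM in tdT+ and 0 to 0.813 CPM in tdT- BLZ945 libraries (edgeR adjusted p = 0.426), without overlap. The other 5 astrocyte markers ran from −1.30 (Gja1) to 2.67 (Slc1a3), and all 6 summed to 64.7 to 243 CPM in tdT+ and 60.8 to 187 CPM in tdT- BLZ945. Among fibroblast markers, Col3a1 was at 0 CPM in tdT+ and 0.195 to 5.62 CPM in tdT- BLZ945, without overlap. It differed by −7.36 (SE 2.46, edgeR adjusted p = 0.518). The others ran from −3.15 (Col1a1) to −0.53 (Dcn), and all 6 summed to 17.8 to 23.5 CPM in tdT+ and 15.5 to 62.8 CPM in tdT- BLZ945. The endothelial markers summed to 26.5 to 46.5 and 8.20 to 44.7 CPM and the monocyte markers to 8.87 to 46.0 and 10.8 to 242 CPM in the same groups. The part of these cell types in the tdT+ values of the 10 genes was not tested.

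Because Cd79b is a B cell gene, the other B cell markers were read in the same libraries. Cd79a, whose product pairs with that of Cd79b in B cells, had 0 counts in all 13 sdCAM libraries. In MG libraries it reached 13 counts at most. Pax5, Ms4a1 and Fcmr reached at most 12, 23 and 1 counts in any library. In tdT- BLZ945 libraries all 4 of these genes were at 0. Without the immunoglobulin genes the B cell markers summed to at most 2.07 CPM in MG CTL, 1.22 CPM in tdT- CTL and 3.46 CPM in tdT+ BLZ945 libraries, below the Cd79b level of every library in those groups. Ighm, the immunoglobulin mu chain, was present in every library, at 255 to 464 CPM in MG CTL, 181 to 290 CPM in MG BLZ945, 189 to 314 CPM in tdT- CTL, 173 to 246 CPM in tdT- BLZ945 and 235 to 364 CPM in tdT+ BLZ945. In MG it differed by −0.60 (SE 0.15, edgeR adjusted p = 0.0854), and Ighd, the delta chain, by −1.27 (SE 0.27, adjusted p = 0.0571), so both were lower beside Cd79b without passing the test. Ighd was at 8.88 to 16.2 CPM in MG CTL and 2.83 to 6.77 CPM in MG BLZ945, without overlap. In sdCAMs Ighd was at 0 to 7.83 CPM in tdT- CTL, 0.757 to 22.5 CPM in tdT- BLZ945 and 0.0989 to 1.54 CPM in tdT+ BLZ945, an order unlike that of Cd79b. Ms4a1 was ordered more like Cd79b, with 0, 6, 0, 4 and 15 counts in tdT- CTL, 0 in all tdT- BLZ945 libraries and 21, 23 and 0 counts in tdT+ libraries. Ighm differed by −0.17 (SE 0.18) in tdT- BLZ945 against tdT- CTL and by 0.41 (SE 0.20) in tdT+ against tdT- BLZ945, with edgeR adjusted p of 0.999 and 0.741. The part of B cells in the differences of Cd79b was not tested. With Ighm and Ighd, the 6 markers summed to 269 to 479 CPM in MG CTL, 186 to 296 CPM in MG BLZ945, 197 to 321 CPM in tdT- CTL, 193 to 248 CPM in tdT- BLZ945 and 238 to 367 CPM in tdT+ BLZ945.

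**Figure D3:**
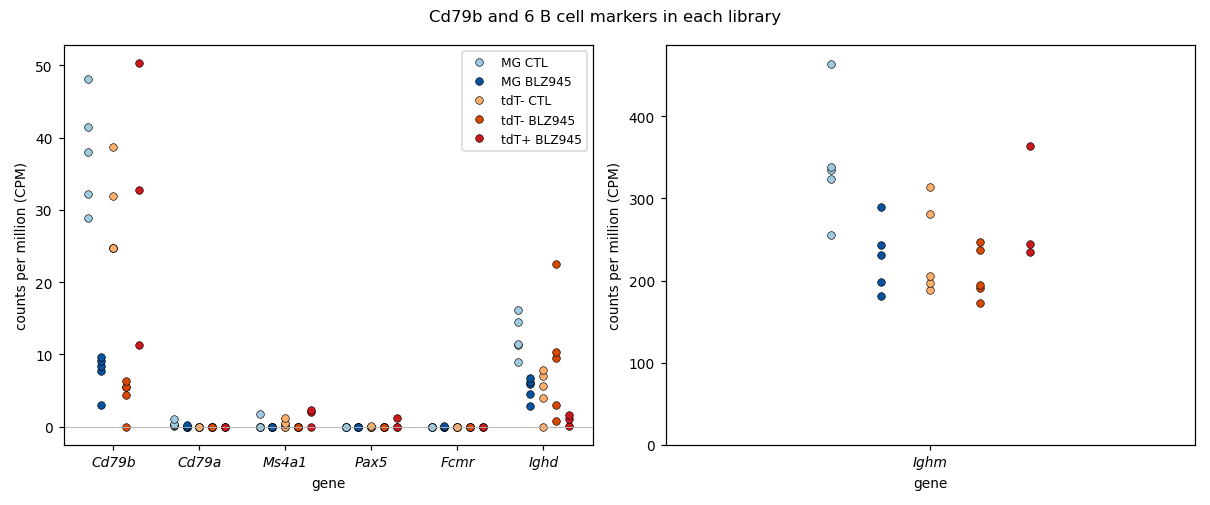
Level of Cd79b and of 6 B cell markers in CPM (vertical axes, linear, Ighm on its own axis) in each library, by group. Cd79a lies at 0 in all sdCAM libraries while Cd79b reaches 38.7 CPM in tdT- CTL and 50.3 CPM in tdT+ BLZ945 libraries.

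Npl encodes N-acetylneuraminate pyruvate lyase, which splits sialic acid in its breakdown. Its levels in MG CTL were 214, 178, 184, 197 and 265 CPM. In MG BLZ945 they were 111, 96.8, 103, 90.5 and 88.9 CPM, a difference of −1.10 (SE 0.12). The tdT- CTL libraries lay above both, at 347, 394, 369, 467 and 830 CPM. The tdT- BLZ945 libraries, at 366, 375, 407, 487 and 622 CPM, overlapped them fully in range. The change was −0.07 (SE 0.25, 95% interval −0.60 to 0.46, edgeR adjusted p = 1.00). Without the tdT- CTL library M2, the one at 830 CPM, the change in tdT- sdCAMs was 0.21. The tdT+ libraries held 290, 304 and 518 CPM and were below the tdT- library of the same sample in 3 of 3 pairs, by −0.37, −0.42 and −0.26 on the log2(CPM + 1) scale. The unpaired fit over all sdCAMs gave −0.30 (SE 0.29, edgeR adjusted p = 0.962), which does not pass, and −0.62 without the tdT+ library M2 and −0.13 without the tdT+ library F2.

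Idh2, the NADP-dependent isocitrate dehydrogenase of mitochondria, varied least between MG CTL libraries, at 176, 184, 174, 182 and 174 CPM. The MG BLZ945 libraries were at 93.8, 116, 95.2, 118 and 79.4 CPM, −0.84 (SE 0.11) lower. In tdT- CTL sdCAMs the gene was at 372, 347, 376, 341 and 390 CPM. In tdT- BLZ945 it was at 269, 375, 363, 343 and 401 CPM, so 4 of the 5 libraries lay within or above the CTL range. The change of −0.04 (SE 0.15) had a 95% interval of −0.37 to 0.28 (edgeR adjusted p = 1.00). The tdT+ libraries had 302, 212 and 362 CPM and were below the paired tdT- library in 3 of 3 pairs. Against tdT- BLZ945 they differed by −0.28 (SE 0.18, adjusted p = 0.846) and against tdT- CTL by −0.32 (SE 0.18, adjusted p = 0.752), and neither passed the edgeR test. Without the tdT+ library M2 these values were −0.46 and −0.52, and without the tdT+ library F3 they were −0.08 and −0.14.

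Khdrbs3 encodes an RNA-binding protein of the STAR family that acts in splicing. It stood at 81.4, 68.3, 63.8, 80.8 and 48.4 CPM in MG CTL. In MG BLZ945 it stood at 26.0, 25.3, 18.6, 29.0 and 33.3 CPM, a difference of −1.39 (SE 0.17). The sdCAM levels were far lower, with 3.96, 9.92, 4.61, 4.74 and 3.89 CPM in tdT- CTL. In tdT- BLZ945 they were 3.43, 7.68, 2.80, 1.07 and 0.882 CPM. The groups overlapped, and the change was −0.77 (SE 0.68, edgeR adjusted p = 0.998), with −1.39 when the BLZ945 library F2 was left out and −0.43 without the CTL library F2. The mean of the tdT- CTL libraries was 7.91% of that of MG CTL, beside 7.91% for the summed microglia markers. In tdT- BLZ945 the shares were 12.0% for Khdrbs3 and 8.99% for the markers, and in tdT+ BLZ945 23.7% and 7.29%. How much of the Khdrbs3 signal in sdCAM libraries came with microglial RNA was not tested. The tdT+ libraries had 4.73, 6.33 and 7.69 CPM, higher than the paired tdT- library in 2 of 3 pairs.

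Rab34, a small GTPase of the Golgi that acts in the making of primary cilia, had 13.7, 17.3, 15.9, 15.2 and 15.7 CPM in MG CTL. All MG BLZ945 libraries were lower, at 6.36, 7.10, 6.45, 5.48 and 8.31 CPM (difference −1.22, SE 0.19). Levels in tdT- CTL were 32.8, 27.4, 20.8, 32.0 and 26.4 CPM. In tdT- BLZ945 they were 28.8, 28.3, 19.7, 23.8 and 0.331 CPM. The last value, of M2, rests on 3 counts, and the other 4 libraries lay in or just below the CTL range. M2 was also the library at 0 for Cd79b. The change over all 5 was −0.46 (SE 0.61, 95% interval −1.76 to 0.84, edgeR adjusted p = 1.00), and without M2 it was −0.14. The tdT+ libraries, at 24.8, 30.0 and 15.8 CPM, lay between the M2 value and the highest tdT- CTL value.

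Prune2, a protein with a BCH domain, was at 31.2, 24.5, 31.4, 31.1 and 32.1 CPM in MG CTL. In MG BLZ945 it was at 57.8, 59.7, 55.7, 53.0 and 49.4 CPM, higher by 0.86 (SE 0.12). All sdCAM libraries were above all MG libraries. They held 102, 142, 178, 148 and 145 CPM in tdT- CTL. In tdT- BLZ945 they held 123, 225, 168, 123 and 197 CPM, a range that overlapped that of CTL. The change was 0.24 (SE 0.19, 95% interval −0.17 to 0.65, edgeR adjusted p = 0.998), with 0.10 when the BLZ945 library F2 was left out. The tdT+ libraries had 166, 144 and 185 CPM, each below its paired tdT- library, though by only −0.44, −0.23 and −0.09 on the log2(CPM + 1) scale.

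Scimp, a transmembrane adaptor of macrophages that gathers the kinase Lyn at Toll-like receptors, was the gene closest to a change in tdT- sdCAMs after Cd79b. MG CTL libraries had 9.11, 6.88, 13.5, 6.70 and 14.2 CPM. MG BLZ945 libraries had 25.3, 29.6, 37.4, 48.1 and 32.1 CPM, higher by 1.76 (SE 0.24). In tdT- CTL the levels were 29.6, 14.9, 25.8, 25.6 and 16.9 CPM. In tdT- BLZ945 they were 31.9, 27.6, 37.4, 31.4 and 33.7 CPM. Of these, 4 lay above the highest CTL library and 1 within the CTL range. The change was 0.54 (SE 0.28, 95% interval −0.05 to 1.13), with an edgeR unadjusted p of 0.0693 and an adjusted p of 0.972. The tdT+ libraries had 24.4, 44.4 and 30.1 CPM, a difference of 0.01 (SE 0.32, adjusted p = 1.00 by edgeR) from tdT- BLZ945. MG and sdCAMs differed in Scimp in the CTL groups, where tdT- exceeded MG by 1.15 (SE 0.26), whereas in the BLZ945 groups the means were 34.5 ± 8.74 CPM for MG and 32.4 ± 3.58 CPM for tdT- sdCAMs (SD, n = 5), closer than the spread of either.

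Chst1 encodes a sulfotransferase that puts sulfate on the galactose of keratan sulfate. It was at 46.5, 37.0, 22.6, 48.6 and 27.3 CPM in MG CTL. MG BLZ945 libraries were at 133, 108, 94.3, 76.2 and 99.0 CPM, higher by 1.47 (SE 0.20). In tdT- CTL it was at 3.62, 1.39, 5.61, 6.53 and 2.68 CPM. The tdT- BLZ945 libraries had 6.96, 11.4, 6.87, 4.88 and 7.72 CPM, of which 4 lay above every CTL library. The change was 0.94 (SE 0.65, 95% interval −0.43 to 2.31, edgeR adjusted p = 0.998). The tdT- mean was 10.9% of the MG mean in the CTL groups and 7.4% in the BLZ945 groups, where the microglia markers were at 7.91% and 8.99%. What microglial RNA contributed to these values was not tested. Among the tdT+ libraries, F3 had 15.3 CPM and F2 and M2 had 2.60 and 3.20 CPM.

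Hcar2, the receptor for niacin and the ketone body beta-hydroxybutyrate, was the 1 gene whose estimate in tdT- sdCAMs had the opposite sign. Its MG CTL libraries had 66.3, 72.2, 143, 123 and 166 CPM. Its MG BLZ945 libraries had 363, 251, 347, 238 and 346 CPM, higher by 1.42 (SE 0.22). In tdT- CTL it was at 43.3, 49.8, 34.7, 61.9 and 23.6 CPM. In tdT- BLZ945 the libraries spread from 8.30 CPM (M1) and 8.49 CPM (M2) over 22.2 (F2) and 52.7 (F3) to 90.9 CPM (F1). They lay on both sides of the CTL range, and the change was −0.21 (SE 0.59, 95% interval −1.46 to 1.03, edgeR adjusted p = 1.00). F1, the highest, also had the highest summed level of 7 monocyte markers, 242 CPM, whereas M1, the lowest for Hcar2, came next with 100 CPM. The other 3 tdT- BLZ945 libraries had 10.8 to 24.8 CPM and the tdT- CTL libraries 7.36 to 28.1 CPM. The part of monocytes, which the Ly6C- gate would remove, in the Hcar2 value was not tested. Without F1 the change was −0.89, and without M1 or without M2 it was 0.04. The tdT+ libraries, at 14.4, 24.8 and 61.0 CPM, overlapped the tdT- ones.

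Htra3, a secreted serine protease, had the largest difference among the 5 genes that were higher in MG BLZ945. It stood at 15.4, 10.5, 4.26, 15.2 and 5.74 CPM in MG CTL. In MG BLZ945 it stood at 34.8, 62.9, 34.2, 35.6 and 33.9 CPM, higher by 1.96 (SE 0.31). In sdCAMs it was near the limit of the counts. The tdT- CTL libraries held 4, 19, 6, 1 and 0 counts. The tdT- BLZ945 libraries held 46, 0, 7, 0 and 0 counts, and the tdT+ libraries 34, 0 and 2. The 46 counts of F1 are 4.93 CPM, and the next library, F3, had 0.633 CPM. The fitted change of 1.15 (SE 1.73, 95% interval −2.53 to 4.83) is wide in both directions, so these libraries do not settle whether Htra3 differed. Without the tdT- BLZ945 library F1, or without the tdT- CTL library F2, Htra3 no longer passed the filter on low counts.

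Over the 3 pairs of tdT+ and tdT- libraries sorted from the same BLZ945 samples, Cd79b had the largest difference of the members whose 3 pairs had the same sign. An exact sign-flip permutation test over 3 pairs cannot go below a two-sided p of 0.25, so none was run. The edgeR comparison of tdT+ with tdT- BLZ945 called 0 of the 10 genes and 0.206% of all genes. DESeq2 called 1 of the 10, Cd79b, and 1.02% of all genes. At an unadjusted p under 0.05 there was 1 member, against 6.91% of all genes, and groups without overlap were seen for 1 member, against 3.40% of all genes. Against tdT- CTL, edgeR called 0 of the 10 and 0.283% of all genes, and DESeq2 called 0 of the 10 and 1.39% of all genes. None of the 10 had an unadjusted p under 0.05, against 7.44% of all genes, and 0 of the 10 were free of overlap, against 8.16% of all genes. The sign of that last estimate was the same as in MG for 7 of the 10 genes, against 46.1% of all genes tested in both.

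**Figure D4:**
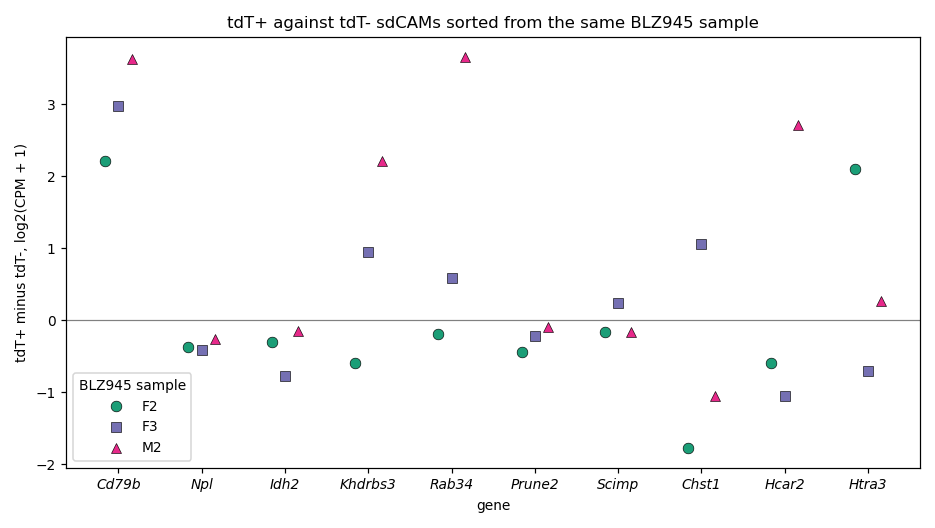
Difference between the tdT+ and the tdT- library of the same BLZ945 sample on the log2(CPM + 1) scale (vertical axis) for each gene (horizontal axis), with F2, F3 and M2 as circles, squares and triangles. Cd79b lies above 0 in 3 of 3 pairs, at 2.22 to 3.62, and Npl, Idh2 and Prune2 lie below 0 in 3 of 3 pairs at −0.77 to −0.09. The triangle of Rab34 at 3.66 rests on a tdT- library with 3 counts, and that of Cd79b at 3.62 on the same library with 0 counts of Cd79b.

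In vehicle-treated mice most of the 10 genes differed between the cell classes. In the CTL groups, the tdT- and MG libraries of 9 of the 10 did not overlap, against 26.8% of all genes, and Cd79b was the exception, with a difference of −0.39 (SE 0.50). The genes higher in sdCAMs were Prune2 (2.24, SE 0.17), Npl (1.21, SE 0.21), Scimp (1.15, SE 0.26), Idh2 (1.03, SE 0.12) and Rab34 (0.84, SE 0.51). Those higher in MG were Htra3 (−4.34, SE 1.03), Khdrbs3 (−3.66, SE 0.44), Chst1 (−3.20, SE 0.34) and Hcar2 (−1.42, SE 0.47). These values share the MG CTL libraries with the comparison that chose the genes and are given without a test. By group means, Npl, Idh2 and Rab34 ran from MG BLZ945 over MG CTL to the sdCAM groups, whose libraries overlapped. Within the pairs, tdT+ was below tdT- in 3 of 3 for Npl and for Idh2, and above it in 2 of 3 for Rab34. Chst1, Hcar2 and Htra3 ran the other way, from the sdCAM groups, which again overlapped, over MG CTL to MG BLZ945, while Khdrbs3 was highest in MG CTL and Prune2 and Scimp were lowest there.

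For each gene, the 2 named genes whose log2(CPM + 1) followed it most closely over the 23 libraries, among 13012 genes searched, were noted by Pearson's r. All points share the 5 groups, so a difference between MG and sdCAMs alone can give a high r. Npl was closest to Idh2 (0.94) and Snx6 (0.93), and Idh2 to Nme4 (0.96) and Tle5 (0.95). Khdrbs3 was closest to F11r (0.93) and Gna15 (0.93), Rab34 to St3gal4 (0.89) and Slc44a1 (0.88), and Prune2 to Xdh (0.97) and Sh3pxd2b (0.97). Chst1 was closest to Pdcd1 (0.95) and Tnfsf13b (0.94), Hcar2 to Clip1 (0.91) and Peli1 (0.89), and Htra3 to Tnfsf8 (0.95) and H2-Oa (0.93). Cd79b and Scimp had the lowest r with their closest genes, Ulbp1 (0.77) and Mcm5 (0.74) for Cd79b, and Il2rg (0.78) and Ezr (0.74) for Scimp.

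The pathways and families around the 10 genes, were listed without the genes themselves. In MG, tdT- sdCAMs and tdT+ against tdT- BLZ945 sdCAMs, edgeR called 0 of their genes. Their counts at an unadjusted p under 0.05 stand against 13.2% of all genes in MG and 5.33% in tdT- sdCAMs. Around Npl, 14 of 16 genes of sialic acid and amino sugar metabolism were tested in each comparison, with 1 at an unadjusted p under 0.05 in MG and 0 in tdT- sdCAMs. The most abundant of them, Renbp, which acts on N-acylglucosamine, differed by 0.01 (SE 0.10) in MG and by 0.01 (SE 0.14) in tdT- sdCAMs. Around Idh2, all 18 genes of the tricarboxylic acid cycle and the other isocitrate dehydrogenases were tested, with 1 at an unadjusted p under 0.05 in MG and 4 in tdT- sdCAMs. Sdha, a subunit of succinate dehydrogenase, differed by 0.23 (SE 0.10, edgeR adjusted p = 0.350) in MG and by −0.32 (SE 0.21) in tdT- sdCAMs.

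Around Cd79b, 11 of 13 genes of B cell receptor signalling were tested, with 2 at an unadjusted p under 0.05 in MG and 1 in tdT- sdCAMs. Fcgr2b, the inhibitory Fc receptor, differed by 0.17 (SE 0.11) in MG and by 0.17 (SE 0.15) in tdT- sdCAMs. Around Chst1, 8 of 10 genes of keratan sulfate synthesis and breakdown were tested, with 2 at an unadjusted p under 0.05 in MG and 0 in tdT- sdCAMs. Around Rab34, 8 of 9 relatives and partners were tested, with 0 in either comparison. B4galt1, a galactosyltransferase, differed by 0.23 (SE 0.14) in MG and by 0.12 (SE 0.23) in tdT- sdCAMs, and Rab7, a GTPase of late endosomes, by 0.08 (SE 0.09) and by 0.08 (SE 0.11). Of the STAR proteins around Khdrbs3, 3 of 4 were tested, of the BCH domain proteins around Prune2 4 of 6 in sdCAMs and 3 of 6 in MG, and of the metabolite receptors around Hcar2 2 of 9, with 1 STAR protein at an unadjusted p under 0.05 in MG and otherwise 0 in both comparisons. Qki, a STAR protein, differed by −0.0011 (SE 0.10) in MG and by 0.06 (SE 0.15) in tdT- sdCAMs. Bnip2, a BCH domain protein, differed by 0.01 (SE 0.10) and by 0.22 (SE 0.17), and Gpr84, a receptor for medium-chain fatty acids, by 0.32 (SE 0.18) and by −0.02 (SE 0.49). Of the HtrA proteases, 2 of 3 were tested, with 2 at an unadjusted p under 0.05 in MG and 0 in tdT- sdCAMs. The mitochondrial Htra2 differed by −0.27 (SE 0.12, edgeR adjusted p = 0.362) in MG and by 0.08 (SE 0.23) in tdT- sdCAMs.

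The 1 call was Lat2, a transmembrane adaptor of the same kind as Scimp, of whose 12 listed relatives and partners 7 were tested, with 1 at an unadjusted p under 0.05 in MG and 2 in tdT- sdCAMs. Lat2 was at 14.5 to 30.0 CPM in tdT- CTL, 28.7 to 43.0 CPM in tdT- BLZ945 and 64.5 to 76.9 CPM in tdT+ BLZ945 libraries. It was higher in tdT+ BLZ945 than in tdT- CTL by 1.53 (SE 0.26, edgeR adjusted p = 0.0144). Against tdT- BLZ945 the difference was 0.92 (SE 0.26) with an edgeR adjusted p of 0.408, which passed by DESeq2 (0.0477) and in the model of all 23 libraries (0.0108), and in tdT- BLZ945 against tdT- CTL 0.61 (SE 0.23) with an adjusted p of 0.777. Its call against tdT- CTL was lost when the BLZ945 libraries of F2 and M1 were left out. MG libraries held more Lat2, 138 to 178 CPM in CTL and 136 to 183 CPM in BLZ945. The microglia markers summed to 2273 to 3050 CPM in tdT+ libraries and to 1785 to 2944 CPM in tdT- CTL, and their part in the Lat2 values was not tested.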

How the data were processed

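RNA of 23 sorted cell samples was made into libraries with a low-input SMART-Seq kit. The deposited values are raw counts per gene. Per the labels, the authors used bcl2fastq 2.20, STAR 2.7.11a, featureCounts 2.0.6 and DESeq2 1.46.0, and how strand and multiply mapped reads were counted is not given in the sources used here. From these counts, CPM were computed with TMM factors over all 23 libraries. Genes kept by filterByExpr were tested with edgeR 4.0.16 (quasi-likelihood, two-sided, Benjamini-Hochberg over all genes tested, called under 0.05) in R 4.3.3. The 10 MG libraries were fitted in 1 model, the 13 sdCAM libraries in another, and the 20 MG and tdT- libraries in a further model for the difference between tdT- and MG in CTL, which is given without a test. Fold changes are log2 with standard errors. The code was tested on simulated data. Alternatives were DESeq2 1.42.0, RLE factors, other filters, all 23 libraries in 1 model, a replicate block, and leaving out libraries. The members, gene lists and the rule for named genes (all 10 members, genes of the pathway and family lists called by edgeR, in such a list without a call its most abundant gene, and for likeness the 2 genes of highest r) were chosen with earlier results of these data known, and some listed genes are not reported here. Libraries that carry the same label within BLZ945 come from the same animals or pool per the labels, so tdT+ and tdT- are paired (correlation of their deviations 0.134, 0.0952 and 0.0505 over 9178 genes). Between CTL and BLZ945 the labels share only a letter, F or M, and a number. The titles do not explain the letter, and the paper states that each group held both sexes. P-values measure the spread between these samples. The 95% intervals come from the edgeR fits and hold that spread, while the floor of 3 counts covers counting error only.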

Additional observations from a re-analysis of the deposited data

Results flagged for a closer look

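In groups of 5, the highest or lowest library was set against Dixon's 95% criterion for all 10 genes in 4 groups, 40 tests, of which chance flags about 1 in 20. Library M2 of tdT- CTL stood apart for Npl, at 830 CPM with the next library at 467 CPM. Library F2 of tdT- CTL stood apart for Khdrbs3, at 9.92 CPM with the next at 4.74 CPM. Library F2 of MG CTL was low for Prune2, at 24.5 CPM with the next at 31.1 CPM. For Htra3, library F2 of MG BLZ945 was at 62.9 CPM with the next at 35.6 CPM, and library F1 of tdT- BLZ945 was at 4.93 CPM with the next at 0.633 CPM. F1 of tdT- BLZ945 was also the library with the most monocyte marker RNA (242 CPM).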

How the results depend on the processing

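Of 1102 alternative values, 1046 were counted as unchanged. For fold changes with a test, this means that direction and side of the threshold stayed the same. The total also holds fold changes given without a test and numbers of calls, which were judged by how far they moved. It therefore mixes criteria and is no share of tested results that held. For tdT- BLZ945 against tdT- CTL, 1 member was called by DESeq2 and 1 in the model of all 23 libraries. That model includes the MG libraries that chose the members. For tdT+ against tdT- BLZ945 it was likewise 1 and 1. The member was Cd79b each time. Leaving out 1 library gave 0 to 1 members in tdT+ against tdT- BLZ945 and 0 in tdT- BLZ945 against tdT- CTL. Over all genes DESeq2 called 238, 56, 133 and 181 and the model of all 23 libraries 12, 29, 82 and 121 in MG, tdT-, tdT+ against tdT- BLZ945 and tdT+ against tdT- CTL, where the main models called 46, 0, 27 and 37. The cause was not tested. Genes of the lists called rose to 1 and 1 (tdT+ against tdT- BLZ945) and to 2 and 2 (tdT+ against tdT- CTL) by DESeq2 and in the model of all 23 libraries, and in the latter comparison were 0 without the BLZ945 libraries of F2 and M1, a setting added after seeing the data.

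With the replicate block, the signs turned for Cd79b against tdT- CTL in tdT+ (−0.073), for Hcar2 (0.22) and Scimp (−0.049) in tdT+ against tdT- BLZ945, and for Htra3 in tdT- BLZ945 (−0.28), where CTL and BLZ945 share only the letter and number of a label. The block called 89, 0, 6 and 36 genes in these comparisons and changed no call of a member. Without the BLZ945 libraries of F2 and M1, signs turned for Hcar2 in tdT- BLZ945 (0.24), for Chst1 (0.36), Htra3 (−4.07) and Prune2 (0.0034) in tdT+ against tdT- BLZ945, and for Hcar2 (0.0029) and Htra3 (−2.20) in tdT+ against tdT- CTL.

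Leaving out 1 library gave, in tdT- BLZ945 against tdT- CTL, −0.89 to 0.040 for Hcar2, −0.11 to 0.038 for Idh2 and −0.22 to 0.21 for Npl. In tdT+ against tdT- BLZ945 it gave −1.38 to 0.30 for Chst1, −0.91 to 0.54 for Hcar2, −3.33 to 0.62 for Htra3, −0.13 to 0.10 for Prune2, −0.11 to 0.43 for Rab34 and −0.26 to 0.20 for Scimp. In tdT+ against tdT- CTL it gave −0.40 to 0.52 for Cd79b, −0.45 to 1.23 for Chst1, −1.13 to 0.015 for Hcar2 and −2.18 to 1.76 for Htra3. Values that kept their sign but moved by over 1.5 times there were those of Npl (−0.70 to −0.089), Khdrbs3 (0.020 to 0.54), Rab34 (−0.47 to −0.035), Prune2 (0.10 to 0.29) and Scimp (0.27 to 0.73), beside Idh2. With at least 10 counts asked of every library, Cd79b, Khdrbs3, Rab34 and Htra3 were not tested. Htra3 had at most 7 counts in most sdCAM libraries, and its fitted changes there moved with single libraries.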
